A study of Mus musculus with 8 samples.

Results

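The genes that shorten, remove and protect mRNA tails, and those that make them, were followed in mouse hearts with intact Mettl3 and with Mettl3 deleted in cardiomyocytes. The set held 77 of the 23045 genes in the table. It took protein-coding genes whose symbols start with Cnot, Dcp, Xrn, Exosc, Upf, Smg, Cpsf, Cstf, Edc or Lsm and a digit, or with Pabpc or Pabpn, together with Nudt21, Pan2, Pan3, Pcf11, Fip1l1, Papola, Parn, Btg1, Btg2 and Tob1. The rule rests on names, not on measured values, and was set with earlier results of these data known.

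Total RNA of hearts had been sequenced as 4 WT libraries (genotype Mettl3lox/lox) and 4 Mettl3 KO libraries (Mettl3lox/lox:alphaMHC-MerCreMerpos). All mice carried the same floxed Mettl3 allele and had received tamoxifen at 100 µg per 1 g body weight for 7 days, starting from an age of 10 to 16 weeks. The alphaMHC promoter drives the tamoxifen-dependent Cre recombinase in cardiomyocytes, so the other cells of the heart keep Mettl3, and because WT mice lacked the Cre transgene, Cre and loss of Mettl3 cannot be told apart. Values are normalized read counts, scaled between libraries by the authors and rounded to whole numbers.

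METTL3 is the catalytic subunit of the complex that writes m6A, a methyl mark on adenosines of mRNA. The reader YTHDF2 binds m6A and recruits the CCR4-NOT deadenylase through its scaffold CNOT1. The mRNA is then either decapped and degraded from its 5′ end by XRN1, or degraded from its 3′ end by the RNA exosome. A separate nuclear machinery cleaves the nascent transcript at its polyA site and adds the tail, and its cleavage factors also set which of several polyA sites is used.

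The targeted gene, Mettl3, stood at 105, 133, 118 and 107 normalized read counts in WT hearts and at 74, 68, 69 and 78 in Mettl3 KO hearts. All KO values lay below all WT values, and the KO mean was 62.4% of the WT mean (log2 fold change -0.67, SE 0.10, adjusted p = 0.000184). Normalized totals per library ran from 2839589 to 2916986, and the reads behind them were estimated at 2631471 to 3062377. A value of 0 allows up to 3 reads, which is between 2.78 and 3.33 normalized read counts depending on the library and covers counting error only. Markers of several cell types differed between the groups. The summed level of 8 cardiomyocyte markers was 25723 to 27299 in WT and 23898 to 27012 in Mettl3 KO hearts, with 1 of 8 lower. All 5 atrial markers were higher (192 to 432 against 598 to 1392), as were 7 of 8 fibroblast markers (3648 to 4172 against 4711 to 5671), while 4 of 8 endothelial markers (4794 to 5038 against 4169 to 4575) and 1 of 6 macrophage markers (1007 to 1258 against 969 to 1152) were lower. Markers of smooth muscle and pericytes (6 genes, 2482 to 2706 against 2425 to 2656), lymphocytes (6 genes, 14 to 24 against 7 to 22) and blood cells (5 genes, 174 to 285 against 123 to 199) held none that passed. The atrial markers set 2 libraries apart. Mettl3 KO replicate 1 was at 23 for Myl7, 113 for Myl4, 10 for Sln and 0 for Bmp10, within the WT range, and its sum of 598 was mostly Nppa (452). WT replicate 3 was at 0 for Myl7 and Sln and at 17 for Myl4, below the other WT libraries, and Bmp10 was at 0 in all WT libraries. With all libraries 3 genes of the machinery described next passed the test (Exosc4, Lsm11 and Cnot1). Without Mettl3 KO replicate 1 there were also 3, with Smg8 (adjusted p = 0.0492) in place of Lsm11 (0.0655), and without WT replicate 3 there were 4, with Smg6 (0.0218) in addition. Leaving out any 1 library gave 1 to 4, and Exosc4 was the 1 that passed without WT replicate 1, WT replicate 4 or Mettl3 KO replicate 4. The part of cell composition in the results that follow was not tested, and in bulk tissue fewer cells of a type and less RNA per cell cannot be told apart.

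The decay and polyadenylation machinery differed little between the groups. Of 77 genes, 76 had a mean value of 1 or more and were tested, and 3 passed an adjusted p of 0.05 (limma, adjusted over all genes). Exosc4 and Lsm11 were higher and Cnot1 was lower in Mettl3 KO hearts. These are 3.95% of the tested genes of the machinery, against 7.91% of all 20313 genes tested (4.72% higher and 3.19% lower). Among protein-coding genes with a mean of 20 or more, 12.2% passed, and 4.29% of the 70 genes of the machinery in that range. The share that passed was below the background in both comparisons, but it rests on 3 genes and the difference was not tested. In that range of means, the median absolute log2 fold change was 0.10 for the machinery and 0.11 for protein-coding genes. The untested gene was Pabpn1l, a poly(A) binding protein gene, with 0, 1, 1 and 2 normalized read counts in WT hearts and 1, 0, 0 and 1 in Mettl3 KO hearts.

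Summed over the machinery, WT hearts held 16717 to 17522 normalized read counts, or 0.580% to 0.611% of the library, and Mettl3 KO hearts 16437 to 17035, or 0.563% to 0.590%. The ranges overlapped. The median log2 fold change was -0.01 over the 76 genes, with 35 above and 41 below 0, and -0.01 over all genes tested. Single genes ran from -0.75 for Lsm2 to 0.98 for Exosc4. For 60 of the 76 genes the 95% confidence interval lay within 0.5 of 0 on the log2 scale, and for 40 within 0.3. Changes beyond these sizes thus fell outside the interval for most of the machinery. All 60 were among the 70 genes with a mean of 20 or more. An interval within 0.5 of 0 was also found for 44.7% of all genes tested and 78.3% of protein-coding genes with that mean. Before adjustment, 19 genes (25%) had a p under 0.05, 10 of them higher and 9 lower, against 20.6% of all genes and 27.8% of the more abundant protein-coding genes. In 7 genes (9.21%) the groups did not overlap, against 11.5% of all genes and 17.0% of the more abundant protein-coding genes. Exosc4, Smg8 and Tob1 were the 3 with all KO values above all WT values, and Cnot1, Cnot3, Cnot6l and Pcf11 the 4 with all KO values below.

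**Figure D1:**
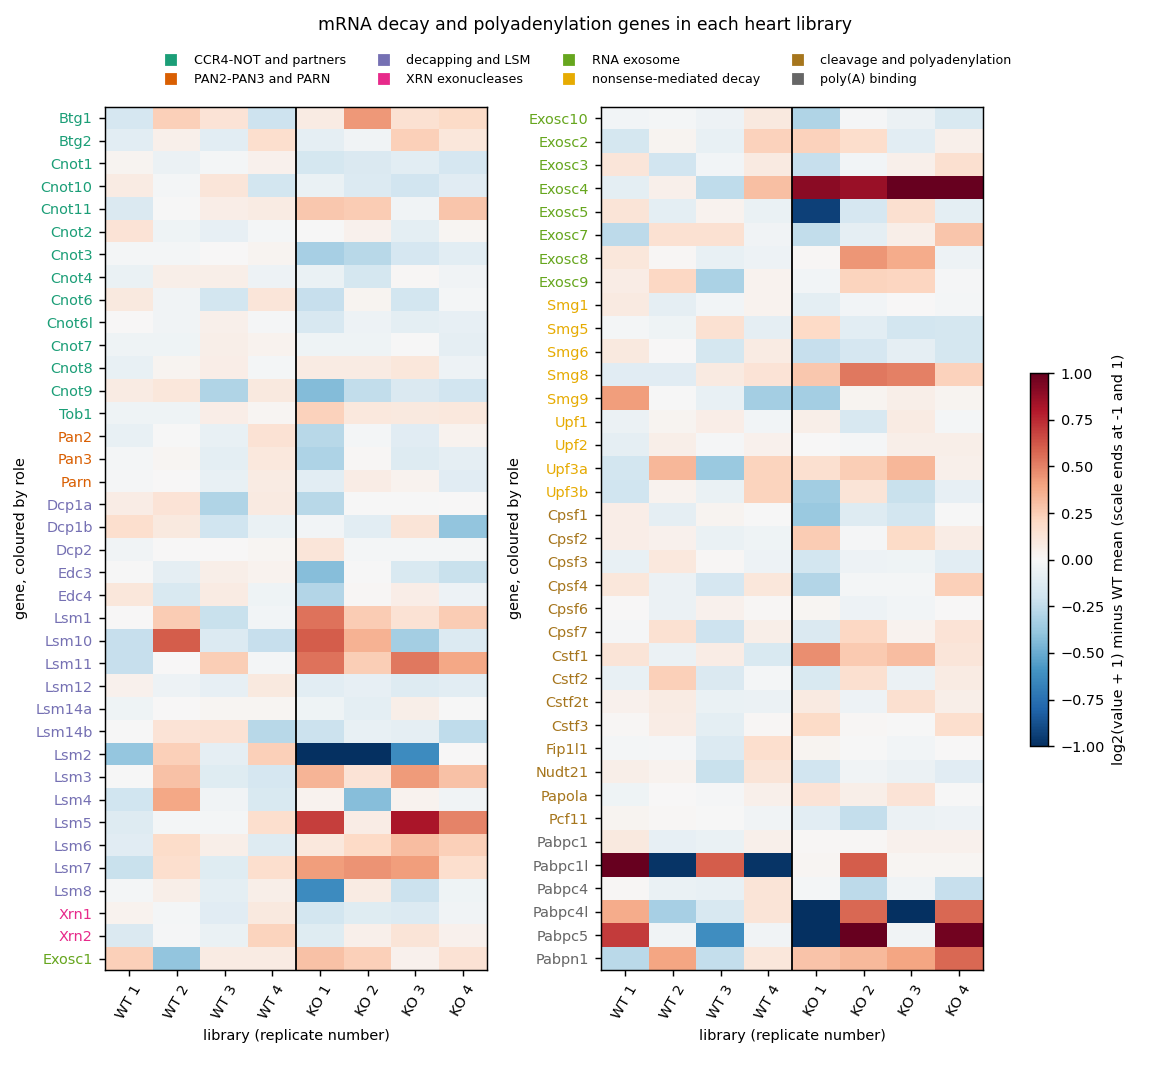
Level of 75 of the tested genes (rows, label colours mark roles) in the 8 heart libraries (columns), as log2(value + 1) minus the WT mean of that gene, with the colour scale ending at -1 and 1. Exosc4 is high in all 4 Mettl3 KO libraries, whereas most rows are pale in all 8 libraries and rows of low genes such as Pabpc5 vary within both groups.

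Levels per kilobase of exon differed widely between the genes. In WT hearts Tob1 had 94.4, Papola 89.4 and Cnot8 87.2 normalized read counts per kilobase, the scaffold gene Cnot1 63.2 and the exonuclease gene Exosc10 67.1. Pabpc1l, Pabpc5 and Pabpc4l, 3 cytoplasmic poly(A) binding protein genes, were at 0.551, 0.924 and 1.68 per kilobase, and their intervals were too wide to show any but large changes.

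The bases upstream of the start are shown for Lsm11, Smg8 and Cnot3, which were among the 5 genes with the lowest p and had a window in the RefSeq promoter table. Each is 250 bases in the direction of transcription up to the base before the start (GRCm38.p6 coordinates, an earlier build than the mm39 of the gene table). Capitals mark GC boxes (GGGCGG or its complement on the other strand, CCGCCC) and CCAAT boxes (CCAAT, searched on both strands).
Lsm11, chr11:45944936-45945185, minus strand: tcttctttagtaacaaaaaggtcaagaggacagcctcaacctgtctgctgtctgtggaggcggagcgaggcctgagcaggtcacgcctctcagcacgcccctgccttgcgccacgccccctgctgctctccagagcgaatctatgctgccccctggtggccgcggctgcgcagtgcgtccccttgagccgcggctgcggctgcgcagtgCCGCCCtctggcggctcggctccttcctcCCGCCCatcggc
Smg8, chr11:87086778-87087027, minus strand: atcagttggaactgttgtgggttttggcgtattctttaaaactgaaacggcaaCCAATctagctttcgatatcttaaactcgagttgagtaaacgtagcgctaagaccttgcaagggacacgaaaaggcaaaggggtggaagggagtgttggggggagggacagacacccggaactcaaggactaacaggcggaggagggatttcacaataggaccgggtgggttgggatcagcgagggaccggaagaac
Cnot3, chr7:3645019-3645268, plus strand: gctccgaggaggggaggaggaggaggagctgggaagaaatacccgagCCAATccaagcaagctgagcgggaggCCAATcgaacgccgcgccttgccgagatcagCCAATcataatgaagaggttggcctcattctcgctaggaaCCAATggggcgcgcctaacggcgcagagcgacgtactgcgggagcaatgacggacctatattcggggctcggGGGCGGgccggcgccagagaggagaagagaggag
Lsm11 held 2 GC boxes and no CCAAT box, Smg8 1 CCAAT box and no GC box, and Cnot3 1 GC box and 4 CCAAT boxes. None held the letters TATAAA on either strand. Windows were found for 65 of the 77 genes, 75 windows in all. A GC box stood in 61.3% of them, against 42.6% of 21263 windows of protein-coding genes of the same length, a CCAAT box in 33.3% against 35.4%, and TATAAA in 4.00% against 11.6%.

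CCR4-NOT removes most of the poly(A) tail in the cytoplasm. Cnot1 (ENSMUSG00000036550, mm39 chr8:96446079-96534092, minus strand), the scaffold on which the other subunits assemble, had 1106, 1044, 1072 and 1120 normalized read counts in WT hearts and 958, 984, 1009 and 965 in Mettl3 KO hearts. All KO values were below all WT values, and the difference was small (90.2% of the WT mean, log2 fold change -0.15, SE 0.04, 95% interval -0.23 to -0.07, adjusted p = 0.0246). The call was lost without WT replicate 1 (adjusted p = 0.0809), WT replicate 4 (0.0814), Mettl3 KO replicate 2 (0.0558) or Mettl3 KO replicate 4 (0.0609), and the log2 fold change stayed between -0.17 and -0.13 in every alternative run.

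The other subunits pointed mostly the same way without passing the test. Of the 11 Cnot genes, 9 had a negative log2 fold change, the median was -0.10, and 4 (36.4%) had an unadjusted p under 0.05, all with lower KO means (Cnot1, Cnot3, Cnot6l and Cnot9). Over all genes tested 51.8% had a negative log2 fold change and 20.6% an unadjusted p under 0.05, and among the more abundant protein-coding genes 27.8% had such a p. The Cnot genes were grouped after their values were seen, and 8 or 9 of the 11 were negative in every alternative run. Cnot3, a subunit of the NOT module that binds the carboxyl-terminal part of CNOT1, had 181, 181, 184 and 187 normalized read counts in WT hearts and 145, 151, 163 and 170 in Mettl3 KO hearts. The groups did not overlap, but the adjusted p was 0.0718 at a log2 fold change of -0.22 (SE 0.07). Cnot9, which binds proteins of the microRNA pathway, had 102, 104, 78 and 103 in WT hearts against 71, 81, 87 and 84 (log2 fold change -0.25, SE 0.11, adjusted p = 0.195). WT replicate 3 lay among the KO values.

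The deadenylases themselves differed by little. Cnot6l, of the CCR4 type, had 585, 570, 605 and 579 normalized read counts in WT hearts and 524, 565, 545 and 551 in Mettl3 KO hearts (a log2 fold change of -0.10, SE 0.05, adjusted p = 0.241). Its close relative Cnot6 had 355, 324, 292 and 361 against 282, 339, 292 and 328 (log2 fold change -0.10, SE 0.07). Cnot7, of the CAF1 type, had 288, 288, 309 and 304 against 288, 288, 296 and 279 (log2 fold change -0.05, SE 0.06), and its relative Cnot8 had 218, 234, 241 and 226 against 243, 243, 249 and 222 (log2 fold change 0.06, SE 0.07). The groups overlapped in Cnot6, Cnot7 and Cnot8 and were apart in Cnot6l. Tob1 and Btg1 encode proteins that bind the CAF1 nucleases. Tob1 had 210, 209, 226 and 219 in WT hearts and 254, 232, 231 and 232 in Mettl3 KO hearts, without overlap (log2 fold change 0.13, SE 0.07, adjusted p = 0.248), and Btg1 had 67, 89, 83 and 65 against 80, 102, 84 and 86, with overlap (log2 fold change 0.22, SE 0.12, adjusted p = 0.331). Of the remaining genes of the group, Cnot2, Cnot4 and Cnot10 had log2 fold changes of -0.01, -0.07 and -0.13, and Cnot11 and Btg2 of 0.19 and 0.06, all with overlapping groups.

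The other deadenylases, PAN2-PAN3 and the poly(A)-specific ribonuclease PARN, had no gene past the threshold. Pan3, which recruits the nuclease PAN2 to the tail, had 565, 580, 534 and 616 normalized read counts in WT hearts and 463, 579, 524 and 537 in Mettl3 KO hearts, where replicate 1 was the lowest (log2 fold change -0.13, SE 0.06, adjusted p = 0.238, and -0.07 without that library). Parn had 157, 159, 150 and 168 against 147, 167, 162 and 146 (log2 fold change -0.03, SE 0.08), and Pan2 had a log2 fold change of -0.09.

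**Figure D2:**
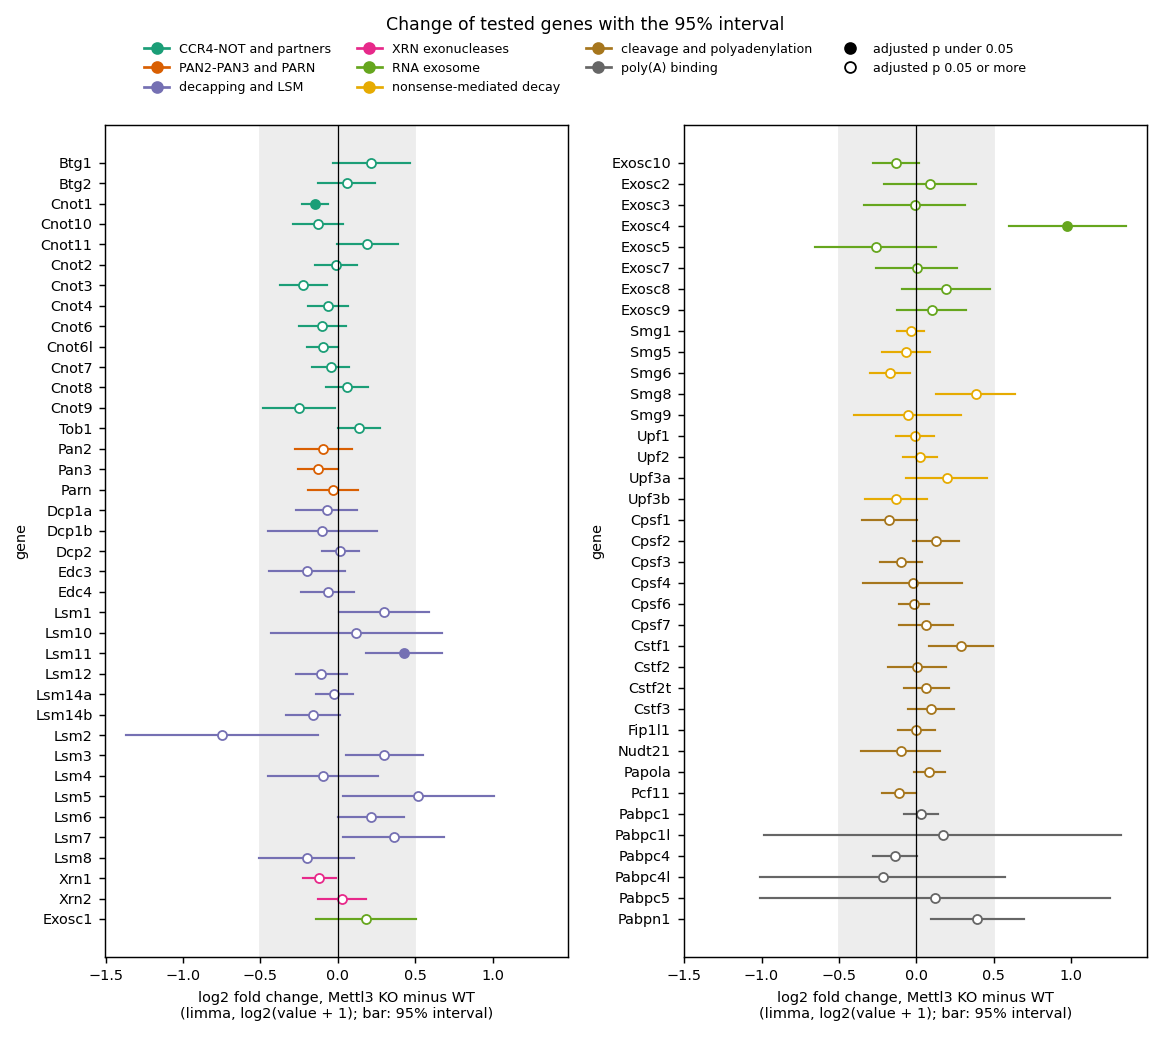
Log2 fold change, Mettl3 KO minus WT (horizontal axis), of 75 of the tested genes with 95% confidence intervals from limma (n = 4 libraries a group), where filled points have an adjusted p under 0.05 and the grey band marks changes within 0.5 of 0. Only Exosc4, Lsm11 and Cnot1 are filled, and the interval of Exosc4, 0.60 to 1.35, is the only one wholly outside the band.

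Of 18 genes for decapping factors and LSM proteins, 1 passed. Lsm11 (ENSMUSG00000044847, mm39 chr11:45819096-45835762, minus strand) encodes a subunit of the U7 snRNP, which directs the 3′ end processing of replication-dependent histone mRNAs, and takes no part in decapping. It had 55, 65, 77 and 64 normalized read counts in WT hearts and 95, 77, 94 and 85 in Mettl3 KO hearts. WT replicate 3 and Mettl3 KO replicate 2 met at 77, and the KO mean was 134.5% of the WT mean (log2 fold change 0.43, SE 0.12, 95% interval 0.18 to 0.67, adjusted p = 0.0275). The call was lost without WT replicate 1 (adjusted p = 0.105), WT replicate 2 (0.0635), WT replicate 4 (0.0657), Mettl3 KO replicate 1 (0.0655), Mettl3 KO replicate 3 (0.103) or Mettl3 KO replicate 4 (0.0617), while the log2 fold change stayed between 0.35 and 0.51 in every alternative run. Lsm10, the other LSM subunit of the U7 snRNP, had 13, 24, 14 and 13 against 24, 20, 12 and 14 (log2 fold change 0.12, SE 0.27), a spread too wide to place it.

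LSM2 to LSM7 form a ring that with LSM1 promotes decapping in the cytoplasm and with LSM8 binds the U6 snRNA in the nucleus. None of these 8 genes passed after adjustment, though 5 had an unadjusted p under 0.05 with higher KO means (Lsm1, Lsm3, Lsm5, Lsm6 and Lsm7) and 1 with a lower one (Lsm2). These are 75% of the 8, against 20.6% of all genes and 27.8% of the more abundant protein-coding genes, and the 8 were also grouped after their values were seen. Lsm3 had 65, 80, 60 and 58 normalized read counts in WT hearts and 83, 72, 88 and 80 in Mettl3 KO hearts (a log2 fold change of 0.30, SE 0.12, adjusted p = 0.142). Lsm7 had 28, 37, 30 and 37 against 44, 45, 44 and 37 (log2 fold change 0.36, SE 0.16, adjusted p = 0.183). Values overlapped between the groups in both genes, as they did in Lsm2, with 12, 19, 15 and 19 against 7, 6, 10 and 16 (log2 fold change -0.75, SE 0.30, adjusted p = 0.142). Lsm5 had 12, 13, 13 and 15 against 22, 14, 24 and 19 (log2 fold change 0.52, SE 0.24, adjusted p = 0.209). Lsm2 and Lsm5 rest on few reads, and their intervals were the widest of the 8. The log2 fold changes of Lsm1, Lsm4, Lsm6 and Lsm8 were 0.30, -0.10, 0.21 and -0.20. Lsm14a and Lsm14b, whose proteins reside in P-bodies where decapping factors gather, were at -0.02 and -0.16, and Lsm12 at -0.11.

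No gene of the decapping enzyme passed. Dcp2, its catalytic subunit, had 321, 330, 330 and 332 normalized read counts in WT hearts and 358, 324, 324 and 323 in Mettl3 KO hearts, where replicate 1 stood above the other 3 (log2 fold change 0.02, SE 0.06, 95% interval -0.10 to 0.13). Its activators Dcp1a, Dcp1b and Edc4 had log2 fold changes of -0.07, -0.10 and -0.07. Edc3, which enhances decapping, had 70, 66, 73 and 72 against 52, 70, 63 and 60 (log2 fold change -0.20, SE 0.12, adjusted p = 0.366, and -0.13 without Mettl3 KO replicate 1). Xrn1, the exonuclease that degrades decapped mRNA in the cytoplasm, had 689, 663, 622 and 719 in WT hearts against 592, 617, 612 and 657 (log2 fold change -0.12, SE 0.05, adjusted p = 0.184). Only WT replicate 3 fell within the KO range. Its nuclear relative Xrn2, which acts in transcription termination, had 288, 315, 304 and 372 against 292, 330, 349 and 328 (log2 fold change 0.03, SE 0.07).

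Among the 9 Exosc genes of the RNA exosome, 1 passed. Exosc4 (ENSMUSG00000034259, mm39 chr15:76211597-76214877, plus strand) encodes a subunit of the ring through which RNA is threaded to the nucleases. It had 18, 20, 16 and 24 normalized read counts in WT hearts and 37, 36, 43 and 40 in Mettl3 KO hearts. Every KO value was above every WT value, and the mean was 39.0 ± 3.16 against 19.5 ± 3.42 (SD, n = 4 libraries, log2 fold change 0.98, SE 0.18, 95% interval 0.60 to 1.35, adjusted p = 0.00123). It passed in each of the 19 alternatives run, with adjusted p from 0.000642 to 0.0102. The gene overlaps Oplah on the opposite strand by 619 bases, and reads had been counted by strand. Oplah had 200, 176, 223 and 150 against 163, 131, 178 and 160 (log2 fold change -0.24, adjusted p = 0.201). Gpaa1, which starts 553 bases downstream of Exosc4 on the same strand, had 37, 28, 21 and 25 against 25, 26, 26 and 30 (log2 fold change -0.03, adjusted p = 0.968).

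No other Exosc gene had an unadjusted p under 0.05. Exosc5, a ring subunit as well, had 47, 40, 44 and 41 normalized read counts in WT hearts and 22, 38, 48 and 40 in Mettl3 KO hearts, with replicate 1 far below the others (log2 fold change -0.26, SE 0.19, adjusted p = 0.492). Without that library it was at -0.04, and without Mettl3 KO replicate 3, the highest, at -0.40. Exosc10, a nuclear 3′ to 5′ exonuclease attached to the ring, had 236, 238, 233 and 258 against 195, 239, 232 and 217 (log2 fold change -0.13, SE 0.07, adjusted p = 0.327, and -0.07 without Mettl3 KO replicate 1). The other 6 genes, Exosc1, Exosc2, Exosc3, Exosc7, Exosc8 and Exosc9, had log2 fold changes from -0.01 to 0.19.

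**Figure D3:**
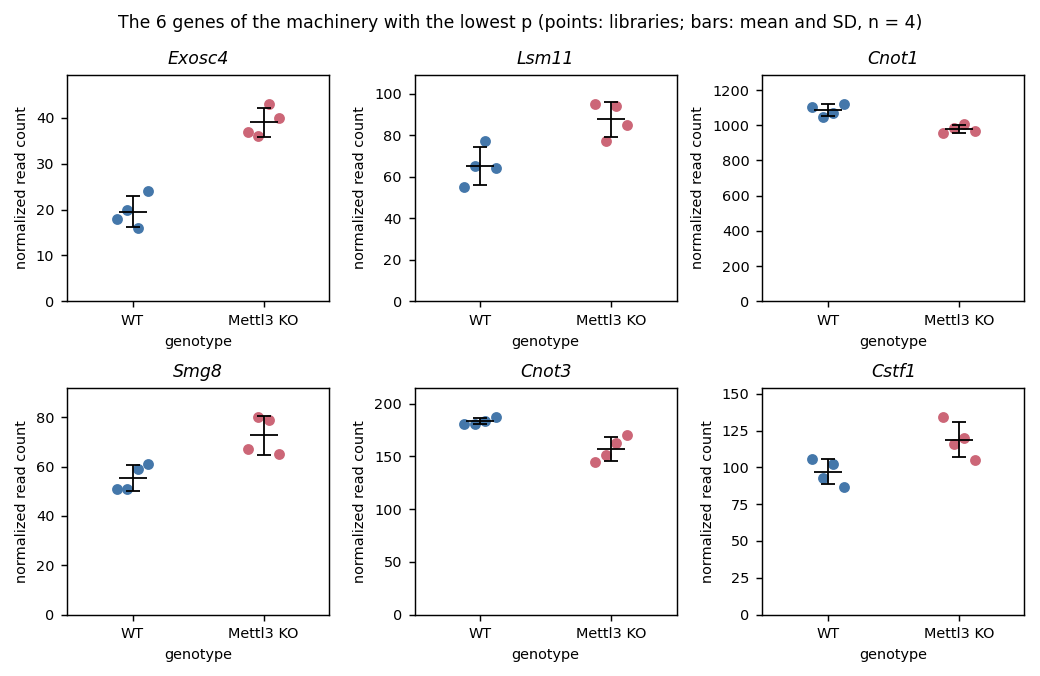
Normalized read counts (vertical axes from 0) of the 6 genes with the lowest p in WT and Mettl3 KO hearts, with points for libraries and bars for mean and SD (n = 4). Exosc4 has no overlap (16 to 24 against 36 to 43) and Lsm11 meets at 77. Cnot1, Smg8 and Cnot3 are apart by margins that are smaller relative to their levels, and Cstf1 overlaps at its edges.

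Nonsense-mediated decay removes mRNAs with premature stop codons, and UPF1 is the helicase at its centre. None of its 10 genes passed. Upf1 had 360, 381, 392 and 367 normalized read counts in WT hearts and 391, 336, 397 and 370 in Mettl3 KO hearts (a log2 fold change of -0.01, SE 0.06, 95% interval -0.13 to 0.12). Smg1, the kinase that phosphorylates UPF1 and the gene of the machinery with the highest mean normalized read count, had 1565, 1382, 1447 and 1510 against 1379, 1444, 1475 and 1451 (log2 fold change -0.04, SE 0.04). The groups overlapped in both genes. Upf2, Upf3a and Upf3b, which bridge UPF1 to exon junctions, had log2 fold changes of 0.03, 0.20 and -0.13, and the adaptor Smg5 one of -0.07.

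Smg8 (ENSMUSG00000020495, mm39 chr11:86968558-86977600, minus strand), a regulator of the SMG1 kinase, had 51, 51, 59 and 61 normalized read counts in WT hearts and 67, 80, 79 and 65 in Mettl3 KO hearts. The groups did not overlap, and the adjusted p of 0.0564 was just above the threshold at a log2 fold change of 0.38 (SE 0.12). It was 0.0463 with a filter at a mean of 10, 0.0339 with quality weights on the libraries and 0.0492 without Mettl3 KO replicate 1. Smg8 passed in these 3 of the 19 alternatives only, and its adjusted p reached 0.169 at the highest. Smg9, its binding partner, had a log2 fold change of -0.06 (SE 0.17). Smg6, the endonuclease of the pathway, had 427, 400, 353 and 424 against 341, 355, 375 and 353 (log2 fold change -0.17, SE 0.06, adjusted p = 0.111). Without WT replicate 3, the lowest of its group, the adjusted p of Smg6 was 0.0218 at a log2 fold change of -0.23. In the other 18 of 19 alternatives Smg6 did not pass. The adjusted p reached 0.299, and the log2 fold change ran from -0.23 to -0.14.

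The 14 genes for cleavage and polyadenylation held none that passed. Cstf1, a subunit of the factor that binds the GU-rich element downstream of the cleavage site, came nearest, with 106, 93, 102 and 87 normalized read counts in WT hearts and 134, 116, 120 and 105 in Mettl3 KO hearts (a log2 fold change of 0.29, SE 0.10, adjusted p = 0.0787). WT replicate 1 and Mettl3 KO replicate 4 crossed by 1 count. Its RNA-binding partner Cstf2 had 160, 198, 152 and 166 against 151, 188, 161 and 178 (log2 fold change 0.01, SE 0.09), and the relative Cstf2t had a log2 fold change of 0.07.

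Nudt21 and Cpsf6 encode the cleavage factor that favours distal polyA sites, and PCF11 acts in cleavage and termination. Nudt21 had 61, 60, 50 and 64 normalized read counts in WT hearts and 51, 57, 56 and 54 in Mettl3 KO hearts (a log2 fold change of -0.10, SE 0.12). Cpsf6 had 565, 539, 580 and 566 against 571, 543, 551 and 563, a difference held within an interval of -0.11 to 0.08 on the log2 scale. Pcf11 had 521, 518, 510 and 501 against 476, 435, 492 and 494, and its groups did not overlap (log2 fold change -0.11, SE 0.05, adjusted p = 0.217). Cpsf1, the large subunit of the factor that recognises the polyadenylation signal, had 162, 145, 158 and 154 against 119, 141, 136 and 154 (log2 fold change -0.17, SE 0.09, adjusted p = 0.256, and -0.11 without Mettl3 KO replicate 1). Papola, the poly(A) polymerase, had 572, 591, 585 and 611 against 650, 614, 648 and 589 (log2 fold change 0.08, SE 0.05, adjusted p = 0.357). Cpsf3, the endonuclease that makes the cut, had a log2 fold change of -0.10, and Fip1l1 one of 0.00. The remaining Cpsf2, Cpsf4, Cpsf7 and Cstf3 ran from -0.02 to 0.13.

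Of the poly(A) binding proteins, Pabpn1 coats the nascent tail in the nucleus. It had 42, 67, 43 and 55 normalized read counts in WT hearts and 62, 64, 67 and 76 in Mettl3 KO hearts (a log2 fold change of 0.39, SE 0.14, adjusted p = 0.106). WT replicate 2 lay within the KO range, and without it the adjusted p was 0.0334 at a log2 fold change of 0.52. In the other 18 of 19 alternatives Pabpn1 did not pass. The adjusted p reached 0.292, and the log2 fold change ran from 0.30 to 0.52. Pabpc1, the main cytoplasmic form, had 497, 439, 445 and 483 against 468, 470, 480 and 480 (log2 fold change 0.03, SE 0.05), and Pabpc4 had 329, 312, 309 and 356 against 321, 272, 318 and 277 (log2 fold change -0.14, SE 0.07, adjusted p = 0.259). The groups overlapped in both. The low genes Pabpc1l, Pabpc4l and Pabpc5 had log2 fold changes of 0.17, -0.22 and 0.12, with SE of 0.56, 0.38 and 0.55.

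Partners of the machinery outside the set were read from a list of 68 genes. They covered adaptors, tailing enzymes, further cleavage and decapping factors, exosome cofactors, DIS3-type nucleases and ribosome-linked decay. All 68 were tested, 6 passed (8.82%, against 7.91% of all genes), 3 in each direction, and their median log2 fold change was -0.02. Of the 66 with a mean of 20 or more, 6 passed (9.09%, against 12.2% of protein-coding genes in that range). No gene passed among 15 deadenylation adaptors, 13 exosome cofactors and DIS3-type nucleases, 11 further factors of nonsense-mediated decay and 3 of no-go decay.

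Of the 12 further cleavage and polyadenylation genes, 3 passed. Cpeb1 and Cpeb3 encode proteins that bind cytoplasmic polyadenylation elements, and they moved in opposite directions. Cpeb1 had 80, 89, 78 and 87 normalized read counts in WT hearts and 105, 113, 106 and 115 in Mettl3 KO hearts (a log2 fold change of 0.39, SE 0.09, adjusted p = 0.0108). Cpeb3 had 875, 780, 943 and 799 against 709, 627, 687 and 674 (log2 fold change -0.33, SE 0.06, adjusted p = 0.000539). Sympk, the scaffold on which the cleavage factors assemble, had 408, 370, 439 and 377 against 333, 315, 325 and 313 (log2 fold change -0.31, SE 0.06, adjusted p = 0.00224). In all 3 genes the groups were apart.

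The remaining 3 came from tailing and decapping. Tent5a, a cytoplasmic poly(A) polymerase, had 123, 133, 98 and 136 normalized read counts in WT hearts and 156, 166, 173 and 174 in Mettl3 KO hearts (a log2 fold change of 0.46, SE 0.10, adjusted p = 0.00343). Nudt16, a decapping enzyme that acts on the U8 snoRNA, had 14, 23, 22 and 17 against 31, 32, 30 and 34 (log2 fold change 0.74, SE 0.20, adjusted p = 0.0227). Patl1, a scaffold that links deadenylation to decapping, had 330, 346, 359 and 328 against 277, 286, 268 and 311 (log2 fold change -0.26, SE 0.06, adjusted p = 0.0113). The groups were apart in each of these genes. Nudt16 lost its call without WT replicate 1 (adjusted p = 0.0814), WT replicate 4 (0.0613), Mettl3 KO replicate 2 (0.0618), Mettl3 KO replicate 3 (0.0528) or Mettl3 KO replicate 4 (0.0726), and Patl1 without Mettl3 KO replicate 3 (0.0564). Over the alternatives the log2 fold change stayed between 0.61 and 0.83 for Nudt16 and between -0.30 and -0.23 for Patl1.

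**Figure D4:**
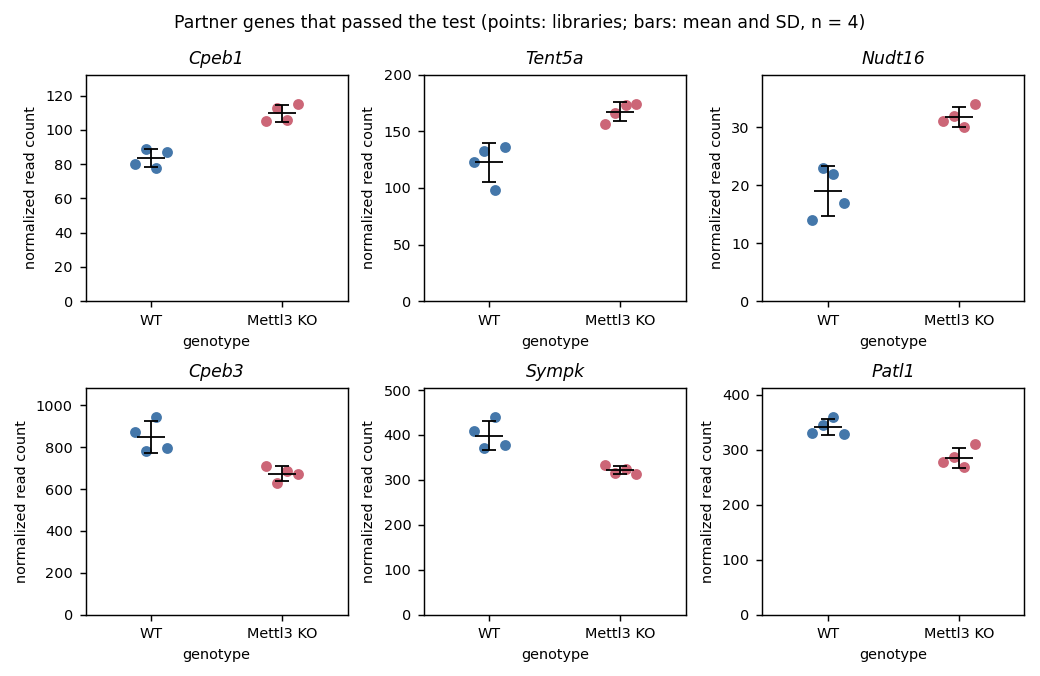
Normalized read counts (vertical axes from 0) of the 6 partner genes that passed the test in WT and Mettl3 KO hearts, with points for libraries and bars for mean and SD (n = 4). Cpeb1, Tent5a and Nudt16 are higher and Cpeb3, Sympk and Patl1 lower in the 4 Mettl3 KO libraries, without overlap.

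Log2 fold changes were compared with the length of the genes. Over the 70 genes whose mean was 20 or more, the log2 fold change and the summed exon length had a Spearman correlation of -0.356, and over 10938 protein-coding genes of that range -0.111. These are correlations across genes of the same 8 libraries, which are not independent replicates. The protein-coding genes were split by length into 3 bins of like size. Of the 19 genes of the machinery with up to 3738 bases of exon, 12 (63.2%) had a positive log2 fold change and the median was 0.09. Of the 29 between 3739 and 6384 bases, 12 (41.4%) were positive and the median was -0.02. Of the 22 from 6385 bases on, 7 (31.8%) were positive and the median was -0.07. The medians of all protein-coding genes in the same bins were 0.03, 0.00 and -0.02, with 57.4%, 50.5% and 45.1% positive. Of the 3 genes that passed, Exosc4 (1945 bases, log2 fold change 0.98) was in the shortest bin, and Cnot1 (17169 bases, -0.15) and Lsm11 (6453 bases, 0.43) were both in the longest. The lowest values of the shortest bin were those of Lsm14b (2892 bases, -0.16) and Exosc10 (3594 bases, -0.13). Within libraries, the correlation between length and the deviation of a gene from its mean over the 8 libraries was 0.006 to 0.128 in WT and -0.117 to 0.006 in Mettl3 KO hearts. The part of length in the differences of single genes was not tested.

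**Figure D5:**
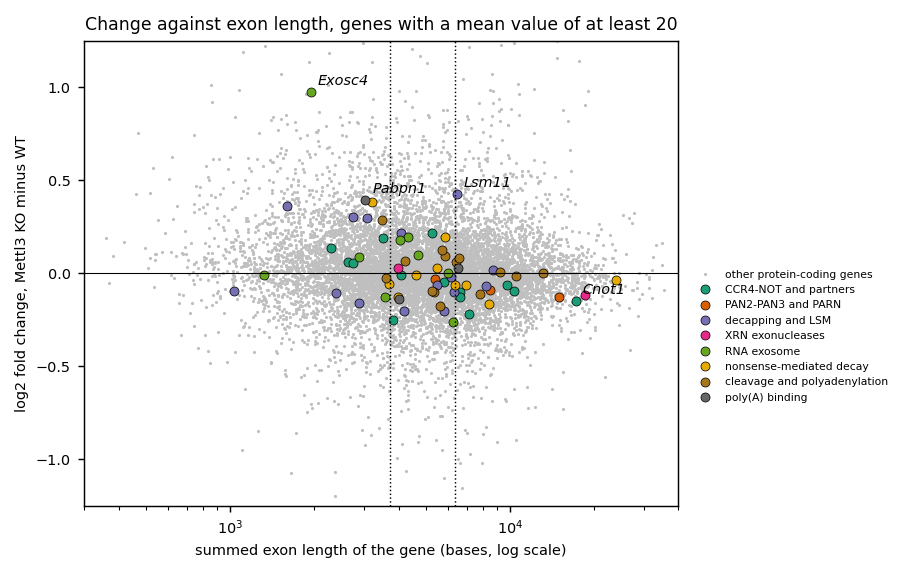
Log2 fold change, Mettl3 KO minus WT (vertical axis), against summed exon length in bases (horizontal log axis) for genes whose mean value was 20 or more, where coloured points are the 70 genes of the machinery, grey points are 10868 other protein-coding genes (39 of them outside the axes) and dotted lines mark the borders of the 3 length bins. Positive values make up 12 of 19, 12 of 29 and 7 of 22 coloured points from left to right, Lsm11 lies at 0.43 in the longest bin, and Exosc4 stands apart from the rest.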

How the data were processed

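Total RNA of mouse hearts (1 µg each) had been sequenced as 8 stranded 72 bp single-end libraries (4 WT, 4 Mettl3 KO). As the study's methods state, reads were trimmed by the authors (Trimmomatic 0.39), aligned to mm39 with Ensembl 109 (STAR 2.7.11a), cleared of duplicates (Picard 3.1.1) and of multi-mapping, ribosomal and mitochondrial reads, counted over exons by strand without reads that touch several genes (featureCounts 2.0.4), and normalized (DESeq2 1.36.0). Leaving out multi-mapping reads lowers genes with near-identical copies. The deposited values are a score, normalized read counts rounded to whole numbers, so no count model was used.

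The 20313 genes with a mean of 1 or more (2732 were left out) were tested with limma 3.58.1 (R 4.3.3) on log2(value + 1), a scale that understates changes of low genes. The model held genotype alone and a trend of variance with mean. All tests were two-sided, and p was adjusted by Benjamini-Hochberg over all genes tested, at a threshold of 0.05. The sources used here do not say whether libraries of a group each came from a separate animal, and p-values then measure the spread between these libraries. Reads per library were estimated from values that rounding skipped or crowded. On simulated data, 60.7% of genes with a log2 fold change of 0.5 and 97.4% of those with 1 were recovered at a mean of at least 20, and 1 of 20264 was called with nothing changed. Exon lengths were looked up by gene identifier in a GRCm38 annotation, and promoter windows were taken from RefSeq (GRCm38.p6).

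The machinery, the partner list and the marker lists (cardiomyocyte, atrial, fibroblast, macrophage, endothelial, smooth muscle and pericyte, lymphocyte, blood cell) were chosen with earlier results of these data known. Named with values were Mettl3, genes that passed, in each role the gene with the highest mean and those with the largest rise and fall at a mean of at least 20, and 12 catalytic or site-choice genes. Cnot3, Tob1, the LSM ring genes and Lsm10, the low poly(A) binding genes and neighbours of Exosc4 were named after their values were seen. In 19 alternatives the scaling, pseudocount, filter, weights, moderation and replicate block were changed or 1 library was left out. The values of 1 gene of the machinery are not reported here, although it is in the counts and sums.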

Additional observations from a re-analysis of the deposited data

Results flagged for a closer look

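In 2 of the 76 groups examined (38 genes in 2 genotypes) 1 library stood far from the other 3, where chance at a rate of 1 in 20 gives 3.8. The gap of Cnot9 in WT was 0.923 of the range of the group, with WT replicate 3 at 78 normalized read counts and the others at 102 to 104. The gap of Dcp2 in Mettl3 KO hearts was 0.971 of the range, with replicate 1 at 358 and the others at 323 and 324.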

How the results depend on the processing

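Scaling, pseudocount, filter, voom weights, robust moderation and library quality weights left 3 or 4 genes of the machinery past the threshold, Exosc4, Lsm11 and Cnot1 among them each time. With the replicate number as a block, 2 remained and Cnot1 was lost (adjusted p = 0.0519), with 1346 calls over all genes. Same-numbered libraries had correlations of 0.0522, 0.0421, -0.0414 and 0.0878 between their deviations, so they share only a number. Leaving out 1 library gave 1 to 4 genes of the machinery (1 without WT replicate 1, WT replicate 4 or Mettl3 KO replicate 4), 1019 to 1596 over all genes (1019 without Mettl3 KO replicate 3) and 4 to 6 partner genes. Exosc4, Cpeb1, Cpeb3, Sympk, Tent5a and Mettl3 passed in all 19 alternatives. The median log2 fold change of the machinery stayed between -0.03 and 0.00.

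Genes near 0 changed sign when 1 library was left out. The log2 fold change of Parn ran from -0.064 to 0.00058 (without Mettl3 KO replicate 4), of Dcp2 from -0.020 (without Mettl3 KO replicate 1) to 0.029, of Xrn2 from -0.022 (without WT replicate 1, and -0.0095 without Mettl3 KO replicate 3) to 0.10, of Pabpc1 from -5.16e-05 (without WT replicate 2) to 0.059, of Upf1 from -0.038 to 0.042 (without Mettl3 KO replicate 2, and 0.014 without WT replicate 3) and of Cpsf6 from -0.034 to 0.00096 (without WT replicate 3). Cstf2 ran from -0.045 (without Mettl3 KO replicate 2) to 0.084, and was at -0.0040 with equal totals and -0.0047 with voom weights. The causes were not tested. Leaving out 1 library also moved other genes that did not pass by over 1.5 times without a change of sign. Btg1 was at 0.14 and Pcf11 at -0.07 without Mettl3 KO replicate 2, and the log2 fold change ran from -0.16 to -0.06 for Cnot6, from -0.18 to -0.06 for Nudt21, from -0.07 to -0.01 for Smg1, from -0.06 to -0.03 for Cnot7 and from 0.03 to 0.09 for Cnot8. For 60 of the 76 genes the interval lay within 0.5 of 0, and all 60 were among the 70 with a mean of 20 or more. Such an interval was found for 44.7% of all genes tested and 78.3% of protein-coding genes with that mean.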
